A study of Homo sapiens with 19 samples.

Results

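Collagen-modifying hydroxylases and lysyl oxidases were taken by symbol, 10 of the 23441 genes in the table of counts: P4HA1, P4HA2 and P4HA3, PLOD1, PLOD2 and PLOD3, and LOX, LOXL1, LOXL2 and LOXL4. All 10 had a row, and 9 passed the filter on low counts. Around their start sites, 53 of the 29309 peaks in 7 lists of HIF binding had a midpoint within 10 kb. The rule uses gene names and no measured value.

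The P4HA genes encode the catalytic α subunits of prolyl 4-hydroxylase, which hydroxylates proline in collagen chains inside the endoplasmic reticulum and so allows a stable triple helix to form. The PLOD genes encode lysyl hydroxylases, whose hydroxylysine products carry sugars and take part in cross-links. LOX and its relatives are secreted copper enzymes that oxidise lysine and hydroxylysine outside the cell, the first step of the cross-links of collagen and elastin. The hydroxylases use oxygen, 2-oxoglutarate and iron, as the enzymes that mark HIF-α for degradation do. Several genes of these families are known targets of HIF in hypoxic cells.

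786-O is an established line of clear cell renal carcinoma that lacks functional VHL, so that HIF-α escapes degradation in air. The parental cells make full-length HIF-2α and no functional HIF-1α. Pools of these cells were transduced with a lentiviral pRRL vector that also carries EGFP, either empty (control cells), with HIF-1α cDNA (pRRL-HIF-1α) or with HIF-2α cDNA (pRRL-HIF-2α), and the study asked how binding and transcription differ between the 2 subunits. RNA-seq had 3 libraries per pool and ChIP-seq 1 library per antiserum and pool. The vector and the lack of VHL are shared by all groups, so none of them is a cell without HIF. The cDNA is driven from the vector and not from the endogenous gene, and no labels say whether the 3 RNA preparations came from separate infections. The p-values below then measure the spread between these libraries.

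The HIF1A count, which includes any transcript of the vector, was 171, 1682 and 473 CPM (counts scaled to 1000000 per effective library) in HIF-1α replicates 1, 2 and 3. In the control cells it was 30.4, 36.7 and 152 CPM, so the groups did not overlap but HIF-1α replicate 1 lay close to control replicate 3. Against the control library of the same number, HIF1A was 3.12 to 45.8 times as high, and 5.64 times in replicate 1. The study reports that the endogenous HIF1A transcripts of 786-O cells are truncated or fused, so the control counts do not measure full-length HIF1A. EPAS1, which encodes HIF-2α, was at 946, 3244 and 880 CPM in the HIF-2α cells against 456, 224 and 162 CPM in the control cells. In the HIF-1α cells EPAS1 was at 575, 627 and 397 CPM, 1.26 to 2.80 times the control library of the same number. HIF1A was at 15.3, 30.36 and 17.5 CPM in the HIF-2α cells. What part these levels of the other factor had in the comparisons with control was not tested. ARNT, which encodes HIF-1β, lay between 33.1 and 69.9 CPM in all 9 libraries. Library totals ranged from 27852754 to 54287621 counts. The kidney transcription factor PAX8 was at 175 to 364 CPM, and the endothelial marker CDH5 and the leucocyte marker PTPRC were at 0 to 0.0853 CPM. Of the other markers of blood and endothelial cells, PECAM1 was at 0.140 to 0.838 CPM and the macrophage marker CD68 at 28.6 to 160 CPM (28.6 to 156 in control, 55.4 to 160 in HIF-1α and 107 to 158 in HIF-2α cells), and their part in the results was not tested. The fibroblast markers DCN and PDGFRA did not exceed 0.443 CPM. The other fibroblast and vessel wall markers were ACTA2 at 6.03 to 32.9 CPM, LUM at 0.457 to 10.4 CPM and PDGFRB at 0.1035 to 1.51 CPM. Their part in the results was not tested. The sum of 5 renal epithelial markers was 1112 to 1479 CPM in control, 773 to 1156 CPM in HIF-1α and 602 to 891 CPM in HIF-2α cells, and its part in the results was not tested. In bulk RNA a smaller share of cells that express a gene and less RNA per cell cannot be told apart.

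HIF binds DNA at the core of the hypoxia response element, ACGTG or GCGTG. Both forms were searched on both strands, with overlapping matches counted as 1 place. In the 300 bases upstream of the canonical start site, 6 of the 10 genes held at least 1 core, and 4 of them (P4HA1, P4HA2, PLOD2 and LOX) held the ACGTG form. Of 19856 protein-coding genes, 56.3% held either core in the same stretch and 23.7% held ACGTG. The sequences of these 4 genes are shown because they hold the ACGTG form and lie under a peak of at least 1 list. They were read from GRCh37 on the strand of each gene, 5′ to 3′, with the core in capitals. CACGT is ACGTG on the other strand. Annotated exons of the same gene covered all 300 bases at PLOD2, 154 at LOX and 108 at P4HA1. Exons of other genes were not considered. P4HA2 is given as the longest stretch of this region outside its own annotated exons (chr5:131563551-131563830, minus strand), which holds 4 cores.
P4HA2: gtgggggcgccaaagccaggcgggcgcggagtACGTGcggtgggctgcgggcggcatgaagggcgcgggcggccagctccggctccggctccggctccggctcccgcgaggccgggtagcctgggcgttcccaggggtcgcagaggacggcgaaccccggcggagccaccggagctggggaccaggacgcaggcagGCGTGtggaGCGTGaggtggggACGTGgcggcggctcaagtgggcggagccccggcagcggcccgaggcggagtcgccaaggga

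The other 3 genes are given as the core with 12 bases on either side, with the distance in bases from the core's first base to the canonical start. P4HA1 holds 1 core, 86 bases before its start (chr10:74856694-74856722, minus strand).
P4HA1: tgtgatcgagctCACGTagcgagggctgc

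PLOD2 holds 3 cores, 213, 200 and 146 bases before its start, of which the first has the GCGTG form (chr3:145879168-145879196, chr3:145879155-145879183 and chr3:145879101-145879129, minus strand).
PLOD2, 213 bases: gccagaagcgctGCGTGagcctccacacg
PLOD2, 200 bases: cgtgagcctccaCACGTagccgcaggcag
PLOD2, 146 bases: caaacagtccagACGTGgggcccaggagg

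LOX holds 4 cores, 185, 116, 98 and 42 bases before its start, all of the ACGTG form (chr5:121414123-121414151, chr5:121414054-121414082, chr5:121414036-121414064 and chr5:121413980-121414008, minus strand).
LOX, 185 bases: gctccctgtgcaACGTGtctggggggagg
LOX, 116 bases: ctgtccgccttgCACGTttccaatcgcat
LOX, 98 bases: tccaatcgcattACGTGaacaaatagctg
LOX, 42 bases: gtaactttgcaaACGTGccagaaagttta

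Differences between pools are given first from a fit across all 14225 tested genes with the pool as the only term (edgeR quasi-likelihood test, Benjamini-Hochberg adjusted p), and then from the same fit with replicate number added as a blocking term. By the first fit no member was called in any of the 3 comparisons. DESeq2 without a block called 2, 0 and 1 members for HIF-1α against control, HIF-2α against control and HIF-1α against HIF-2α, beside 5.25%, 0.412% and 4.43% of the genes to which it gave an adjusted p. Those DESeq2 calls were P4HA1 and LOX for HIF-1α against control and P4HA3 for HIF-1α against HIF-2α. The edgeR fit called 0% of all tested genes for either factor against control and 0.0492% for HIF-1α against HIF-2α. At an unadjusted p under 0.05 it held 5 members as higher in the HIF-1α cells, where 11.1% of all tested genes were higher at that level. In the HIF-2α cells it held 3 members as higher, where the share of all genes was 3.35%, and 1 as higher in HIF-1α than HIF-2α cells (9.04%). The fit with the block called P4HA1 and LOX as higher in the HIF-1α cells, where it called 5.41% of all tested genes as higher and 7.96% in either direction, and no member in the HIF-2α cells, where it called 0.267% of genes in either direction. It called no member between the factors, beside 5.93% of all genes. DESeq2 with the block called 5 members for HIF-1α against control (P4HA1, P4HA2, P4HA3, PLOD2 and LOX), 3 for HIF-2α against control (P4HA1, PLOD2 and LOXL2) and 2 between the factors (P4HA3 and LOXL1), beside 21.6%, 3.39% and 12.2% of the genes with an adjusted p. Both comparisons with control use the same 3 control libraries.

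**Figure D1:**
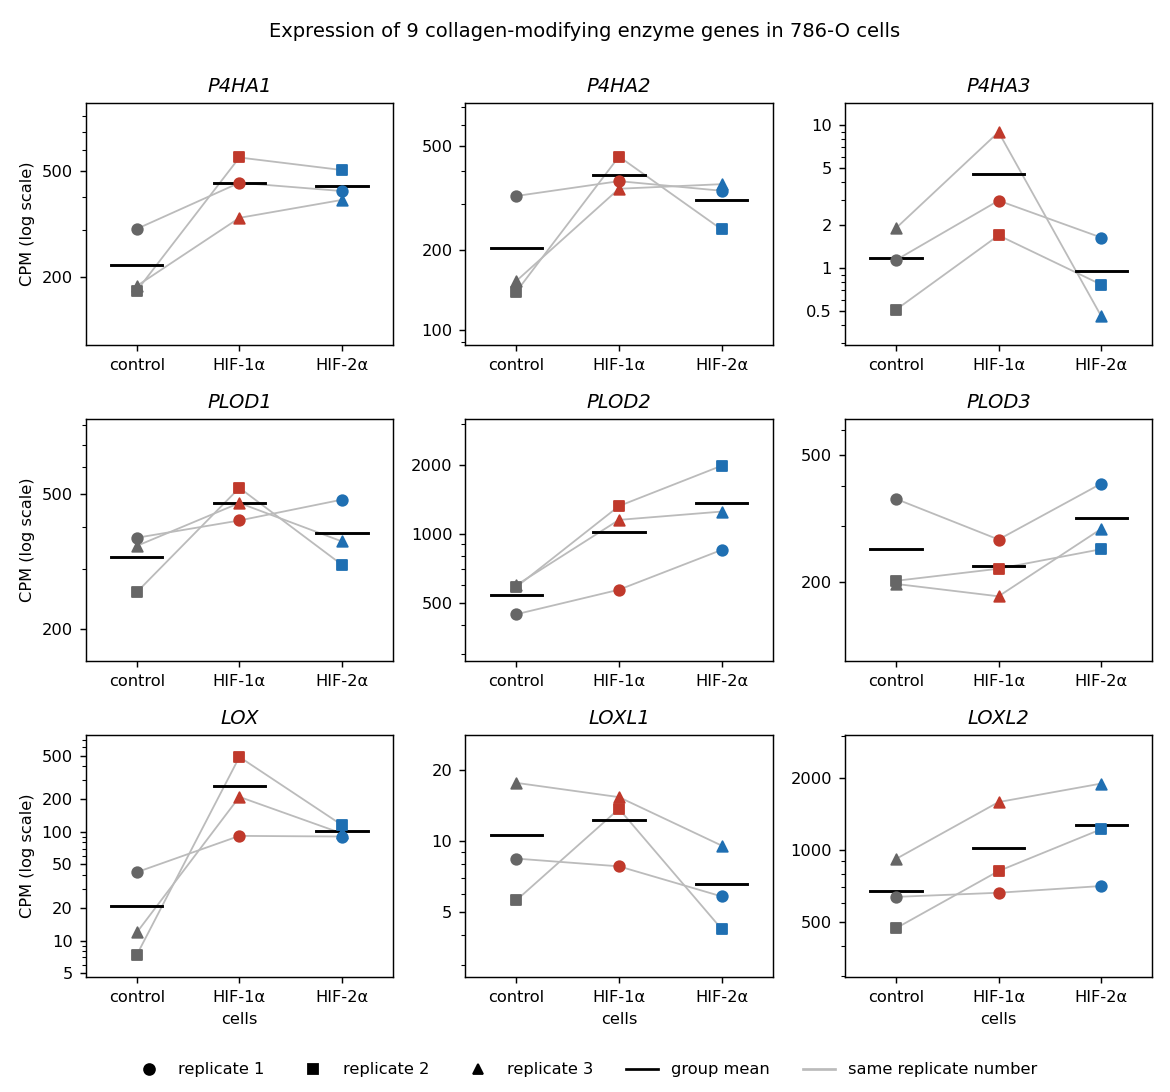
CPM (log axis) of the 9 tested genes in each of the 9 libraries, with grey lines joining libraries of the same replicate number and black bars for the group means. All 3 HIF-1α libraries lay above all 3 control libraries for P4HA1, P4HA2, PLOD1 and LOX, and control replicate 1 was the highest control library for P4HA1, P4HA2, PLOD1, PLOD3 and LOX.

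Among the prolyl 4-hydroxylases, P4HA1 (chr10:74766975-74856732, minus strand, GRCh37) encodes the most widely expressed α subunit. P4HA1 was at 304, 179 and 186 CPM in control replicates 1, 2 and 3, at 452, 561 and 334 CPM in the HIF-1α cells and at 421, 504 and 390 CPM in the HIF-2α cells. Neither group overlapped with control. The fold in HIF-1α cells over control was 2.02 (log2 fold change 1.01 ± 0.29 SE, n = 3 per group, edgeR adjusted p = 0.162) and edgeR called it only with the block (1.01 ± 0.24 SE, adjusted p = 0.0426). The call was kept in 1 of the 9 fits with the block that each left out 1 library, the one without control replicate 1 (adjusted p = 0.0228), and lost without any of the other 8 (adjusted p between 0.0511 and 0.205). DESeq2 called the HIF-1α change on all 9 libraries, without and with the block. In HIF-2α cells the change was of the same size (0.98 ± 0.29 SE, edgeR adjusted p = 0.730 without and 0.143 with the block). DESeq2 called the HIF-2α change with the block only (adjusted p = 0.00701). P4HA1 differed between the HIF-1α and HIF-2α cells by 0.04 ± 0.28 SE on the log2 scale (edgeR adjusted p = 0.973).

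P4HA2 (chr5:131525840-131631008, minus strand), another common α subunit, was at 322, 139 and 153 CPM in the control cells. It was at 367, 455 and 343 CPM in the HIF-1α cells, above every control library. In the HIF-2α cells it was at 337, 241 and 357 CPM, a range that overlapped with control through control replicate 1. The log2 fold change was 0.92 ± 0.34 SE for HIF-1α (edgeR adjusted p = 0.200, 0.0614 with the block, 0.0227 with the block without control replicate 1, and 0.0117 by DESeq2 with the block) and 0.60 ± 0.33 SE for HIF-2α (adjusted p = 0.842). Per kb of its canonical transcript, P4HA1 took 60.5% to 77.5% and P4HA2 22.3% to 38.9% of the summed CPM of the family, with the ranges of the 3 groups overlapping.

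P4HA3 (chr11:73946846-74022685, minus strand) was rare. Its levels were 1.14, 0.512 and 1.90 CPM in the control cells, 2.97, 1.70 and 8.94 CPM in the HIF-1α cells and 1.64, 0.768 and 0.462 CPM in the HIF-2α cells. It was higher in the HIF-1α library than in the control library of the same replicate number in 3 of 3 pairs, by 2.61 to 4.70 times, and the HIF-1α and HIF-2α cells did not overlap. The log2 fold change of HIF-1α over HIF-2α was 2.24 ± 0.74 SE (edgeR adjusted p = 0.230, and 0.0995 with the block), and over control 1.93 ± 0.73 SE (adjusted p = 0.210, and 0.071 with the block). DESeq2 called P4HA3 between the factors without the block (adjusted p = 0.0374) and with it (0.0126), and over control with the block only (0.0119). The edgeR fit with the block called it over control when HIF-2α replicate 3 was left out (adjusted p = 0.0411). HIF-1α replicate 3, where P4HA3 was highest, also had the highest CPM of LUM (10.4) and PDGFRB (1.51), fibroblast and vessel wall markers. DCN (0.261) and COL5A1 (5.29) were highest there too. The marker PDGFRA was highest in control replicate 3 (0.443). ACTA2 was highest (32.9) in HIF-2α replicate 3, where LUM was at 7.55 CPM and P4HA3 was lowest. The sum of the 5 fibroblast and vessel wall markers was 10.9 to 26.4 CPM in control, 14.7 to 37.2 CPM in HIF-1α and 20.0 to 40.7 CPM in HIF-2α cells, most of it ACTA2. Their part in the P4HA3 values was not tested.

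Among the lysyl hydroxylases, PLOD2 (chr3:145752926-145881512, minus strand) hydroxylates the telopeptides of fibrillar collagen. PLOD2 was at 447, 588 and 598 CPM in the control cells, 572, 1321 and 1150 CPM in the HIF-1α cells and 851, 1976 and 1249 CPM in the HIF-2α cells. All HIF-2α libraries lay above the control libraries, whereas HIF-1α replicate 1 lay within them. Within each replicate number the ratio to control was 1.28, 2.25 and 1.92 for HIF-1α and 1.90, 3.36 and 2.09 for HIF-2α. The log2 fold change was 0.90 ± 0.38 SE for HIF-1α (edgeR adjusted p = 0.242, and 0.0535 with the block) and 1.32 ± 0.38 SE for HIF-2α (adjusted p = 0.726, and 0.0633 with the block). Neither passed the threshold with the block in edgeR, and both passed it when control replicate 1 was left out of that fit (adjusted p = 0.0310 and 0.0490). DESeq2 with the block called both on all 9 libraries (adjusted p = 0.00909 for HIF-1α and 3.22e-05 for HIF-2α). The difference between HIF-1α and HIF-2α cells was −0.42 ± 0.38 SE (edgeR adjusted p = 0.659), with PLOD2 higher in the HIF-2α library in 3 of 3 pairs.

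PLOD1 (chr1:11994262-12035595, plus strand), which hydroxylates lysines of the triple helix, was at 371, 256 and 351 CPM in the control cells, 418, 521 and 470 CPM in the HIF-1α cells and 481, 309 and 362 CPM in the HIF-2α cells. The HIF-1α libraries lay above the control libraries and the HIF-2α libraries overlapped with them. The log2 fold changes were 0.53 ± 0.25 SE (edgeR adjusted p = 0.270) and 0.24 ± 0.25 SE (adjusted p = 0.879). PLOD3 (chr7:100849258-100861701, minus strand), which also transfers sugars to hydroxylysine, was at 364, 201 and 197 CPM in the control cells, 271, 220 and 180 CPM in the HIF-1α cells and 407, 253 and 293 CPM in the HIF-2α cells. Its groups overlapped in both comparisons with control, with log2 fold changes of −0.18 ± 0.31 SE for HIF-1α (edgeR adjusted p = 0.771) and 0.32 ± 0.31 SE for HIF-2α (adjusted p = 0.870). PLOD3 was higher in the HIF-2α than in the control library in 3 of 3 pairs.

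Lysyl oxidase showed the widest range of the 9 tested genes, 65.6-fold from the lowest to the highest library. LOX (chr5:121398890-121414108, minus strand) was at 42.5, 7.40 and 11.9 CPM in control replicates 1, 2 and 3, at 91.5, 485 and 209 CPM in the HIF-1α cells and at 90.3, 115 and 96.3 CPM in the HIF-2α cells. Every library of either factor lay above every control library. The ratio to the control library of the same number was 2.15, 65.6 and 17.6 for HIF-1α and 2.13, 15.5 and 8.11 for HIF-2α, so both were smallest in replicate 1, where the control level was highest. The HIF-1α library with the least HIF1A (replicate 1) also had the least LOX and the one with the most HIF1A (replicate 2) the most. In the HIF-2α cells replicate 2 had the most EPAS1 and the most LOX. There the least EPAS1 was in replicate 3 and the least LOX in replicate 1. Whether LOX follows the level of either factor was not tested. The fitted fold was 12.7 for HIF-1α (log2 fold change 3.67 ± 0.74 SE, n = 3 per group, edgeR adjusted p = 0.149) and 4.88 for HIF-2α (2.29 ± 0.70 SE, adjusted p = 0.730). With the block the HIF-1α change was called (3.70 ± 0.80 SE, adjusted p = 0.0388), and it was kept in 3 of the 9 fits with the block that each left out 1 library. It was lost without control replicate 2 or 3, HIF-1α replicate 2 or 3, or HIF-2α replicate 1 or 3 (adjusted p between 0.0514 and 0.197). DESeq2 called the HIF-1α change of LOX on all 9 libraries, without and with the block. The HIF-2α change was not called with the block (2.35 ± 0.73 SE, adjusted p = 0.227), except without control replicate 1 (3.69, adjusted p = 0.0427). Between the 2 factors LOX differed by 1.38 ± 0.68 SE (edgeR adjusted p = 0.404), with a ratio of 1.01, 4.22 and 2.17 in replicates 1, 2 and 3.

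LOXL2 (chr8:23154410-23282841, minus strand), an oxidase with scavenger receptor domains, was the most abundant of its family. It was at 639, 473 and 921 CPM in the control cells, 665, 820 and 1592 CPM in the HIF-1α cells and 710, 1226 and 1902 CPM in the HIF-2α cells, with all groups overlapping. It followed the replicate number as well as the pool, replicate 3 being the highest in each group. Relative to the control library of the same number it was higher in 3 of 3 pairs for either factor, by 1.04 to 1.73 times for HIF-1α and 1.11 to 2.59 times for HIF-2α. The log2 fold changes were 0.60 ± 0.44 SE (edgeR adjusted p = 0.462, 0.167 with the block, and 0.0385 with the block without control replicate 1) and 0.92 ± 0.44 SE (adjusted p = 0.837, 0.208 with the block, and 0.0367 by DESeq2 with the block). LOXL1 (chr15:74218330-74244478, plus strand), which acts on elastin, was at 8.46, 5.63 and 17.7 CPM in the control cells, 7.84, 13.7 and 15.4 CPM in the HIF-1α cells and 5.85, 4.26 and 9.61 CPM in the HIF-2α cells. It was lower in the HIF-2α than in the control library in 3 of 3 pairs, as were 19.4% of all tested genes, while the groups overlapped (log2 fold change −0.69 ± 0.47 SE, edgeR adjusted p = 0.842). Between HIF-1α and HIF-2α cells LOXL1 differed by 0.91 ± 0.47 SE (edgeR adjusted p = 0.431, 0.109 with the block, and 0.0376 by DESeq2 with the block). LOXL4 (chr10:100007447-100027951, minus strand) had 0 to 6 counts in every library and was not tested. Exons of LOX, PLOD3 and P4HA3 overlap those of SRFBP1, ZNHIT1 and PPME1 on the opposite strand, and exons of LOXL2 those of ENTPD4 on the same strand. Whether counting used strand is not given in the sources used here, so that reads in those overlaps are uncertain.

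Per kb of canonical transcript, LOXL2 made up 68.5% to 97.0% of the summed CPM of the 4 lysyl oxidase genes in all 9 libraries. The share of LOX was 4.55%, 1.11% and 0.910% in the control cells, 9.01%, 29.7% and 8.65% in the HIF-1α cells and 8.43%, 6.40% and 3.55% in the HIF-2α cells. The HIF-1α shares did not overlap with the other groups, and the HIF-2α shares overlapped with control. Within the lysyl hydroxylases, PLOD2 took 32.0% to 49.9% in the control, 39.2% to 58.2% in the HIF-1α and 42.6% to 73.2% in the HIF-2α cells, ranges that overlap.

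**Figure D2:**
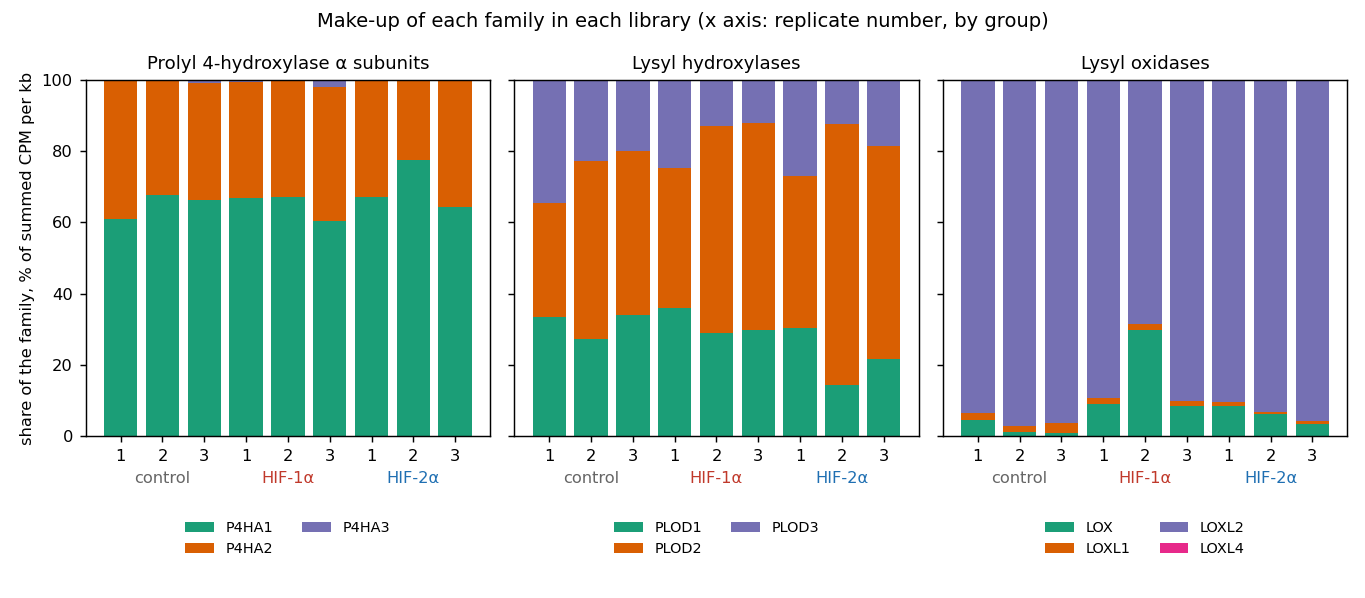
Share of each gene in the summed CPM per kb of canonical transcript (%), for the P4HA, PLOD and lysyl oxidase genes, with 1 bar per library in the order of replicate number within each group. P4HA1 and LOXL2 hold most of their families in every library, and LOX reaches its highest share, 29.7%, in HIF-1α replicate 2.

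Counted over the members, the libraries did not overlap in 4 genes higher in HIF-1α than control cells, P4HA1, P4HA2, PLOD1 and LOX, where 12.9% of all tested genes were so placed. The same held for 3 genes higher in HIF-2α cells, P4HA1, PLOD2 and LOX, beside 6.0% of all tested genes, and for 1 gene higher in HIF-1α than HIF-2α cells, P4HA3, beside 10.4%. By replicate number, 7 of the 9 tested members were higher in the HIF-1α library in 3 of 3 pairs (29.0% of all tested genes) and 7 were higher in the HIF-2α library (19.7%). P4HA1, P4HA2, PLOD1, PLOD2, LOX and LOXL2 stood in both counts, which share the control libraries. The median log2 fold change of the 9 members was 0.90 for HIF-1α against 0.04 over all tested genes, and 0.60 for HIF-2α against −0.02. For HIF-1α against HIF-2α it was 0.29 against 0.02.

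**Figure D3:**
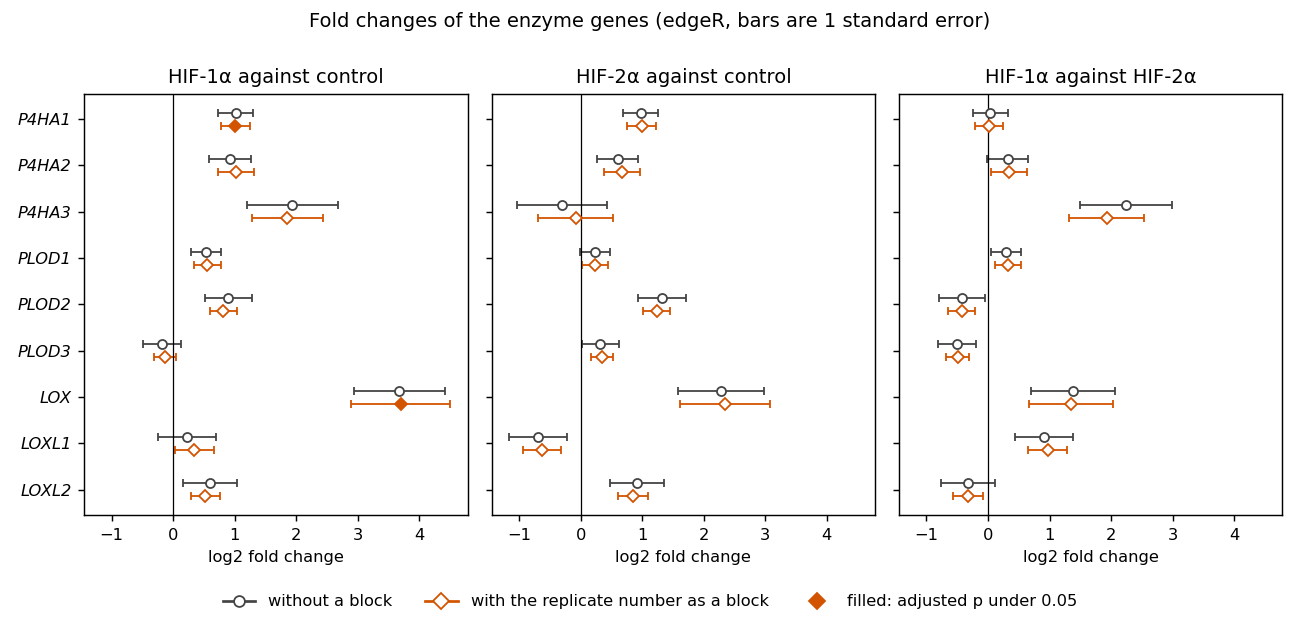
Log2 fold changes of the 9 tested genes in the 3 comparisons, fitted without a block (circles) and with replicate number as a blocking term (diamonds), with bars of 1 standard error and filled symbols for an adjusted p under 0.05. The filled symbols are P4HA1 and LOX with the block in HIF-1α against control, and the block narrows the errors of most genes but not that of LOX.

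The other genes that modify or process collagen were read from the same fits. Of 23 such genes, all of which were tested, the fit without a block called none in any comparison, with 4, 2 and 5 at an unadjusted p under 0.05 for HIF-1α against control, HIF-2α against control and HIF-1α against HIF-2α, where 19.4%, 5.89% and 13.6% of all tested genes passed. DESeq2 without a block called 1, 0 and 3, beside 5.25%, 0.412% and 4.43% of the genes with an adjusted p. With the block DESeq2 called 4, 2 and 5, beside 21.6%, 3.39% and 12.2%. With the block edgeR called 1 for HIF-1α against control, beside 7.96% of all tested genes, PCOLCE2, an enhancer of procollagen C-proteinase (1.53 ± 0.38 SE, adjusted p = 0.0456). For HIF-1α against HIF-2α it called 3 of the 23 as higher beside 4.54% of all tested genes. These were SERPINH1, the collagen chaperone HSP47 (0.97 ± 0.17 SE, edgeR adjusted p = 0.0134), TLL2, a tolloid-like proteinase (1.15 ± 0.27 SE), and ADAMTS14 (3.97 ± 0.96 SE). ADAMTS14, a procollagen N-proteinase, was present at 0.0481 to 6.07 CPM in those 6 libraries. P4HB, the β subunit that every P4HA protein needs, was at 1470 to 2614 CPM and changed by 0.21 ± 0.30 SE for HIF-1α (edgeR adjusted p = 0.727) and −0.02 ± 0.30 SE for HIF-2α (adjusted p = 0.996). TGM2, a transglutaminase, FKBP10, a prolyl isomerase, and COLGALT1, a collagen galactosyltransferase, were the next most abundant, and none of them was called. The median log2 fold change of the 23 was 0.21, 0.15 and 0.06 in the 3 comparisons.

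Of 10 substrate chains, 7 passed the filter, and COL1A2, COL3A1 and ELN did not. The fit without a block called none of the 7, with 2, 2 and 4 at an unadjusted p under 0.05, beside the same 19.4%, 5.89% and 13.6% of all tested genes. With the block COL6A1 and COL6A2, chains of type VI collagen, were called as higher in the HIF-1α than in the control cells, by 0.86 ± 0.17 SE (edgeR adjusted p = 0.0358) and 0.95 ± 0.22 SE (adjusted p = 0.0418), and so was COL5A1, which had 4 counts in each control library. Of all tested genes 5.41% were called as higher there. COL6A1 was called as lower in the HIF-2α cells (−1.26 ± 0.17 SE, edgeR adjusted p = 0.0372), beside 0.155% of all tested genes. Between the factors, COL5A1, COL6A1 and COL6A2 were called as higher in HIF-1α cells, and COL5A2, another type V chain, as lower (−1.87 ± 0.24 SE, edgeR adjusted p = 0.00458), where 4.54% of all tested genes were called as higher and 1.38% as lower. COL6A1 was the only one of the 7 called in both comparisons with control, higher with HIF-1α and lower with HIF-2α. COL5A1 was at 5.29 CPM in HIF-1α replicate 3 and at most 0.539 CPM in every other library.

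The genes whose log2 CPM followed each member most closely over the 9 libraries were MME and UBA6 for P4HA1 (Pearson's r of 0.98 and 0.96), QSOX1 and SLC35E1 for P4HA2 (0.98 and 0.96), and MXRA8 and PPAPDC3 for P4HA3 (0.98 and 0.97). They were APBB3 and ELL2 for PLOD1 (0.95 and 0.95), FGF9 and CDK18 for PLOD2 (0.94 and 0.94) and HSF2BP and GNB5 for PLOD3 (0.96 and 0.96). For LOX they were LRP1 and PTPRF (0.98 and 0.95), for LOXL1 DPCD and LMAN2L (0.97 and 0.95), and for LOXL2 GM2A and HRH1 (0.96 and 0.95). The 9 libraries share 3 pools and 3 replicate numbers, and the best of 14225 genes is high by selection.

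Binding near these genes was read from the 7 lists of peaks, each a window of 2500 bp. A member counted where the midpoint of a peak lay within 10 kb of any of its annotated start sites. In the control cells 4 members had a HIF-2α peak, beside 5.33% of tested genes, and 8 had a HIF-1β peak, beside 25.7%. In the HIF-1α cells 7 had a HIF-1α peak (34.6%), 6 a HIF-2α peak (4.22%) and 7 a HIF-1β peak (40.8%). In the HIF-2α cells 4 had a HIF-2α peak (14.5%) and 6 a HIF-1β peak (16.2%). A gene with more annotated starts has more places to be counted, and the members had 1 (LOXL4) to 23 (PLOD2). From canonical starts alone the counts, in the same order, were 3 and 7 in the control cells. They were 6, 5 and 7 in the HIF-1α cells and 3 and 5 in the HIF-2α cells. The share of tested genes was not computed from canonical starts. The lists differ in length, from 1350 to 6572 peaks, each comes from 1 library and no test was made between them. The study listed only peaks that both of its peak callers found and that passed a signal threshold. It reports that newly listed HIF-2α sites often had weaker signal in the control cells. A site without a listed peak may therefore still be bound.

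**Figure D4:**
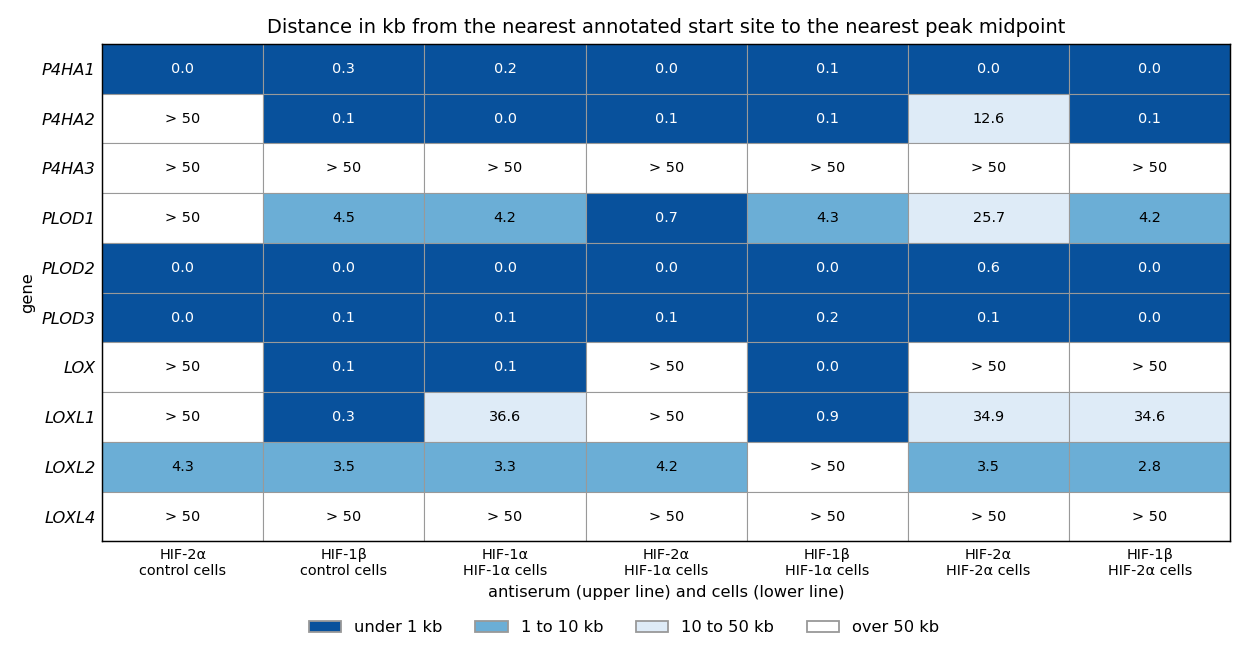
Distance in kb from the nearest annotated start site of each gene (rows) to the nearest peak midpoint in each of the 7 lists (columns, antiserum above cells), with darker blue for shorter distances. P4HA1, PLOD2 and PLOD3 have a peak of every list within 1 kb, LOX has peaks of HIF-1α and HIF-1β but none of HIF-2α within 50 kb, and P4HA3 and LOXL4 have no peak within 50 kb.

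P4HA1, PLOD2 and PLOD3 had a peak of all 7 lists at the start site, as did 1.84% of tested genes within 10 kb. At P4HA1 (chr10:74855011-74858086) the midpoints lay 0.005 to 0.348 kb from the nearest start, and the ACGTG core shown above lay inside the window of all 7 peaks and as near as 17 bases to a midpoint. At PLOD2 (chr3:145877803-145881104) the 3 cores lay inside all 7 windows, and the nearest midpoint was 7 bases from the core at 146 bases before the start. PLOD3 (chr7:100858741-100862546) had the same 7 lists but no core in the 300 bases upstream of its start. Of the 7 peak windows of 301 bases at PLOD3, 3 held a core, whereas all 7 did at P4HA1 and at PLOD2. Over whole lists 45.8% to 68.3% of such windows held one. PLOD3 RNA was not called in any comparison.

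P4HA2 had a peak of 5 lists over its promoter (chr5:131561871-131564908). HIF-2α was among them only in the HIF-1α cells, where the midpoint lay 0.108 kb from the nearest start. The nearest HIF-2α peak lay 176 kb away in the control cells and 12.6 kb away in the HIF-2α cells. All 4 cores of the promoter were inside the 5 windows, and the HIF-1α, HIF-1β and HIF-2α windows of 301 bases in the HIF-1α cells held 3, 3 and 4 of them. Further peaks within 50 kb of P4HA2 starts lay nearer to PDLIM4 and SLC22A4.

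LOX had a peak of 3 lists over its start (chr5:121411470-121414537), HIF-1β in the control cells and HIF-1α and HIF-1β in the HIF-1α cells. The nearest HIF-2α peak of any cells lay at 1736 kb, in the HIF-2α cells, and the nearest HIF-1β peak of the HIF-2α cells was at 114 kb. LOX RNA was above every control library in all 3 HIF-2α libraries. Whether HIF-2α bound at LOX below the calling threshold was not tested. Of tested genes, 23.4% had a HIF-1α peak and no HIF-2α peak within 10 kb. The midpoints at LOX lay 0.667 to 1.24 kb downstream of the canonical start, inside the gene. The HIF-1α window contained all 4 upstream cores, at least 707 bases from the midpoint, and each of the 3 windows of 301 bases held at least 1 other core.

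LOXL1 had HIF-1β peaks at its start in the control and HIF-1α cells and no HIF-α peak within 10 kb. LOXL2 had peaks in its introns, at chr8:23200759-23204462 in 6 of the 7 lists, 3.32 kb from an internal start and 58.4 kb inside the gene from the canonical start, and had no HIF-1β peak of the HIF-1α cells within 50 kb. Of the 11 windows within 10 kb of LOXL2 starts 5 held the AP-1 motif TGAGTCA or TGACTCA, the same motif on the 2 strands. Those 5 overlapped one another within chr8:23200759-23204462 and within chr8:23277718-23280290, so they are not separate occurrences. AP-1 was otherwise found in 2 of the PLOD3 windows, which overlapped each other. It was in no window within 10 kb of P4HA1, P4HA2, PLOD1, PLOD2, LOX or LOXL1 starts. Between 10 and 50 kb it was in 1 window assigned to P4HA2, which lay nearer to PDLIM4. Over whole lists 4.98% to 27.5% of windows held it. PLOD1 had a HIF-2α peak 0.71 kb inside the gene in the HIF-1α cells only and a site of 4 other peaks 4.18 kb upstream (chr1:11988525-11991328), which lay nearer to KIAA2013. P4HA3 and LOXL4 had no peak of any list within 10 kb, as did 45.0% of tested genes, nor any within 50 kb.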

How the data were processed

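RNA-seq of 9 libraries (3 pools of 786-O cells, 3 libraries each) and 7 lists of ChIP-seq peaks were used. Per the submitters' processing notes and the study's methods, reads were trimmed with Trim Galore 0.3.3 and RNA reads aligned to GRCh37 with TopHat2 2.0.8b and Bowtie 1.0.0. The authors deposited raw counts per UCSC gene from HTSeq 0.5.4p3 in intersection-strict mode. ChIP reads were aligned with BWA 0.7.5a-r405, and every window in the deposited lists is 2500 bp wide. The columns of the lists other than positions were not used.

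Counts were normalised by TMM and tested with edgeR 4.0.16 (quasi-likelihood, pool as the only term, all 9 libraries) in R 4.3.3 after filterByExpr, which kept 14225 of 23441 genes. A call is a Benjamini-Hochberg adjusted p under 0.05 over all tested genes. Replicate numbers in the labels paired the libraries. Deviations from the group means correlated at 0.348 to 0.652 in the 9 pairs with the same number and −0.478 to 0.0281 in the 18 others. Deviations cancel out within each group, so positive values in the first set push the second towards negative ones, which are no separate evidence. Because of the same-number correlations, the fit with the number as a block is printed where it changes a call. The BCV was 37.6% without and 24.57% with the block. The script was tested on simulated data. Nothing in the labels says that the libraries came from separate cultures, so p-values may measure technical spread.

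Peaks were assigned by midpoint to GENCODE start sites lifted to GRCh37, which matched 22058 of the symbols and 13767 of the tested genes. Distances, motifs (301-base windows) and promoters (300 bases) were computed in Python 3.11.15 with samtools 1.23.1. Alternatives were DESeq2 1.42.0, other scaling factors, no filter, the 6 libraries compared, leaving out each library and other distances. Leaving out libraries in the fit with the block and using canonical start sites were chosen after seeing the data. The genes and lists were chosen with earlier results of these data known. Besides the members and the targeted genes, the text names listed collagen genes that were called or among the 4 most abundant, markers, and the 2 genes most like each member.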

Additional observations from a re-analysis of the deposited data

How the results depend on the processing

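Of 675 values of the members' fold changes, over 27 results and 25 alternatives, 634 kept their direction and side of the threshold, 25 passed the threshold where the edgeR fit without a block did not, and 16 turned in direction, none of them past the threshold. With the replicate block edgeR called 2, 0 and 0 members for HIF-1α against control, HIF-2α against control and HIF-1α against HIF-2α, DESeq2 without the block called 2, 0 and 1, and DESeq2 with the block 5, 3 and 2. In the same order, of the 23 other collagen genes the block gave 1, 0 and 3 calls, DESeq2 1, 0 and 3, and DESeq2 with the block 4, 2 and 5. Over all tested genes the block gave 1132, 38 and 843, DESeq2 751, 65 and 650, and DESeq2 with the block 3025, 487 and 1798. Without a block and without the filter on low counts 1 and 82 genes were called for HIF-2α against control and HIF-1α against HIF-2α, with only the 6 libraries compared 2 and 0, and with upper-quartile factors 4 for HIF-1α against HIF-2α. The cause was not tested.

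Leaving out 1 library without a block gave 0 members and 0 other collagen genes in every comparison, and over all genes 0, 0 to 2 and 0 to 29. With the replicate block it gave 0 to 5, 0 to 2 and 0 members, where 5 and 2 came without control replicate 1, 0 to 2, 0 and 0 to 4 other collagen genes, and 0 to 2408, 2 to 94 and 167 to 890 of all genes. The turned directions were P4HA1 between HIF-1α and HIF-2α (−0.0103 under DESeq2 with the block, and down to −0.22 leaving out 1 library, where the highest value was 0.21) and P4HA2 there (−0.0306 to 0.58). P4HA3 in HIF-2α against control ranged from −0.94 to 0.69, above 0 without control or HIF-2α replicate 3. PLOD3 in HIF-1α against control ranged from −0.35 to 0.16 (above 0 without control replicate 1 and without a block), LOXL1 there from −0.13 to 0.80, and LOXL2 between the factors from −0.78 to 0.0464. Of 35 counts of members near a peak 34 stayed within 1.5 times, and HIF-2α peaks of the HIF-2α cells rose to 7 members within 50 kb. With 3 libraries per group and 1 ChIP library per list, LOXL4 and the differences between lists were below what could be tested.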
